A study of Mus musculus with 46 samples.

Results

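The TLE corepressor genes were followed across 46 mouse synovial sarcomas profiled by RNA sequencing, with 1 library per tumour. The members are the 5 genes Tle1, Tle2, Tle3, Tle4 and Tle6, chosen by name from the 56980 genes of the hSS2 count table, and all 5 passed the filter on low counts in both tables. Their raw counts ran from 168 reads (Tle6) to 15520 reads (Tle3) in a library. TLE1 protein is a diagnostic stain for human synovial sarcoma, so the question was how its mouse gene and its relatives vary among these tumours and with floxing of a BAF-family subunit gene.

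All tumours came from mice that carry a human fusion gene at Rosa26, switched on by TATCre protein injected into the hindlimb at 8 days of life. TATCre recombines whatever cells it enters, so neither the fusion nor the gene loss was limited to a chosen cell type, and no source used here gives the age of each tumour. The mice were of mixed strain and aged 2 to 6 months. In hSS2 mice (spelled SSM2 in the labels) the fusion is SS18::SSX2, and in hSS1 mice it is SS18::SSX1. Of the hSS2 tumours 13 had the fusion and no floxed gene (control), and 8 each were Arid1a-fl, Arid1b-fl and Pbrm1-fl. Of the hSS1 tumours 5 were control and 4 were Pbrm1-fl. In the floxed groups both alleles of the named gene are floxed, per the study's methods. The protein of Pbrm1 belongs to the PBAF complex, and those of Arid1a and Arid1b are alternatives to each other in the CBAF complex. Every tumour, control tumours included, carries a fusion, so no comparison here is with normal tissue. Littermates served as controls, per the study's methods, but nothing in the labels says which tumours share a litter, and p-values measure the spread between these tumours.

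Levels are given as CPM, which are counts scaled to a library total of 1000000, after TMM scaling of all 46 libraries together. Library totals ran from 10613976 to 21294657 counts in hSS2 and from 10137668 to 14130024 counts in hSS1. Pbrm1 averaged 253 ± 36.98 CPM (SD, n = 13) in hSS2 control tumours and fell to 105 ± 15.4 CPM (n = 8) where it was floxed, and Arid1a fell to 254 ± 14.3 CPM (n = 8) in Arid1a-fl tumours from 487 ± 87.4 CPM (n = 13). Arid1b averaged 203 ± 89.6 CPM (n = 8) in Arid1b-fl and 352 ± 111 CPM (n = 13) in control tumours, and Pbrm1 averaged 186 ± 62.1 CPM (n = 4) in hSS1 Pbrm1-fl and 315 ± 37.97 CPM (n = 5) in hSS1 control tumours. These 2 differences did not pass the edgeR test (adjusted p = 0.145 and 0.193), and in hSS1 that test called 1 of 17786 genes. DESeq2 called 1 of the 3 targeted genes in Arid1b-fl against control tumours and 0 in hSS1 Pbrm1-fl against control tumours. In Arid1b, 5 of 8 Arid1b-fl tumours lay below every control tumour. In Pbrm1, all 4 hSS1 Pbrm1-fl tumours lay below all 5 control tumours, as did 3.73% of genes. Depletion of the floxed gene was thus not shown by edgeR in those groups. In Arid1b-fl replicate 4 Arid1b was at 354 CPM, above the control median, and in replicates 2 and 7 it was within the control range. The library labelled hSS2 control replicate 9 had 239 CPM of Arid1a, the lowest of the control tumours, whose others ran from 433 CPM upward. The mouse numbers in the titles fall into 3 ranges that coincide with the floxed gene. Numbers of 2000 or over hold all hSS2 Pbrm1-fl tumours, those under 1000 all Arid1a-fl tumours, and those from 1000 to under 2000 all Arid1b-fl tumours and all Pbrm1-fl tumours of hSS1. The hSS2 control tumours are spread over the 3 ranges (4, 5 and 4 tumours in that order). Control tumours numbered in the range of the floxed group are called range-matched, and values against them are given beside the main ones or in the closing section.

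TLE proteins, the vertebrate relatives of Drosophila Groucho, do not bind DNA. They are brought to chromatin by factors such as TCF/LEF proteins of the Wnt pathway, HES proteins of the Notch pathway and RUNX proteins, and repress nearby genes together with histone deacetylases. Tle1, Tle2, Tle3 and Tle4 encode full-length corepressors, Tle6 encodes a divergent member known for its role in oocytes and early embryos, and the short relative Aes, also named Tle5, lacks the WD40 repeats and can counter the others. In synovial sarcoma the fusion protein has been described to bridge TLE1 and ATF2.

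In the GENCODE M21 annotation of GRCm38, Tle1 (ENSMUSG00000008305) lies at chr4:72117142-72200919 on the minus strand, Tle3 (ENSMUSG00000032280) at chr9:61372366-61418497 on the plus strand, and Tle4 (ENSMUSG00000024642) at chr19:14448150-14598051 on the minus strand. Tle2 (ENSMUSG00000034771, chr10:81574561-81590845, plus strand) and Tle6 (ENSMUSG00000034758, chr10:81590904-81601073, minus strand) end tail to tail with 58 bases between them. Aes lies 8198 bases before Tle2, at chr10:81559488-81566362 on the plus strand, so 3 genes of the family share 1 stretch of chromosome 10. The libraries were stranded, but the strand setting of the counting step was not stated, so reads running past the end of Tle2 or Tle6 could have been given to the other gene.

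The 250 bases before the start of 4 members are shown because Tle2, Tle3 and Tle6 were higher in hSS2 Pbrm1-fl tumours and Tle1, the diagnostic marker, was not. The sequences are from RefSeq (GRCm38.p6), 5′ to 3′ on the gene's strand, and end at the RefSeq start. That start is the GENCODE start in Tle3 and lies 26 bases inside the GENCODE gene in Tle1, 173 in Tle6 and 726 in Tle2, so the Tle2 window is within the gene as placed above. Capitals mark CACGTG (an E-box) and TGACGT (the core of a cAMP response element, the kind of site that ATF2 can bind).
Tle1, chr4:72200894-72201143, minus strand: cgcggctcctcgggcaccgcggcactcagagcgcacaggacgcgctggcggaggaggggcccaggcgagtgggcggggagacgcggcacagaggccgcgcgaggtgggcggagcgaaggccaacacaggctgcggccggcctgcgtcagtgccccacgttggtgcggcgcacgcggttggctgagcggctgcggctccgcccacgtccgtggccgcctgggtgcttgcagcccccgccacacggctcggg
Tle2, chr10:81575037-81575286, plus strand: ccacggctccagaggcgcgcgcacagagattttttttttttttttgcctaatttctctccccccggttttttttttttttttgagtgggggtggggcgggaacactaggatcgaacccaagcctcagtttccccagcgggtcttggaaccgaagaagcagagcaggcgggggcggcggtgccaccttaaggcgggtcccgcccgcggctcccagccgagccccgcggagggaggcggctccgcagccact
Tle3, chr9:61372116-61372365, plus strand: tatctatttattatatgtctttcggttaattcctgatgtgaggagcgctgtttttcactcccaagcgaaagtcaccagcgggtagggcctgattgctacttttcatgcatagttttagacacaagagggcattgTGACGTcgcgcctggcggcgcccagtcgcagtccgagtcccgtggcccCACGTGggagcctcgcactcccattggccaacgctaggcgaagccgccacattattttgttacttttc
Tle6, chr10:81600901-81601150, minus strand: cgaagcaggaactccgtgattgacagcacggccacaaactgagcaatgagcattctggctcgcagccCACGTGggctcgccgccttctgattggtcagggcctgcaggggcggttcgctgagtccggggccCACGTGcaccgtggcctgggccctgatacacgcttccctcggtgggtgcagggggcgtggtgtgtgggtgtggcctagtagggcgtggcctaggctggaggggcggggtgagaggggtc

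Both strands were searched, and distances are from the RefSeq start. CACGTG lay 68 bases before the start of Tle3, at 183 and 119 bases before that of Tle6, and at 210 bases before that of Tle4, whose window is not shown. It was present in 6.05% of 27025 promoter windows of this length. The longer word CCCACGTGGG, which contains CACGTG and was noticed after the sequences had been read, was present once in each of the Tle3, Tle4 and Tle6 windows and in 0.0888% of all windows. TGACGT was found 116 bases before the start of Tle3 and in none of the other 4 windows, against 6.56% of all windows. The TCF/LEF word CTTTGAT was in none of the 5 windows, against 3.23% of all windows. The Tle3 window, with 52.4% G and C, was near the median of all windows (52%), and the others ran from 61.6% (Tle2) to 77.2% (Tle1). A match is a word in a window and not a bound site, and neither E-box word is particular to the genes that were higher, since Tle4 has both and Tle2 has neither.

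Among the 5 members, Tle3 and Tle1 made up most of the length-scaled RNA. Divided by the exon union of each gene, hSS2 control tumours had 39.8 ± 5.54 CPM per kb of Tle3, 31.9 ± 7.56 of Tle1, 24.2 ± 3.85 of Tle4, 22.5 ± 5.999 of Tle2 and 6.53 ± 2.50 of Tle6 (SD, n = 13). As shares of the 5-gene total these were 31.9% ± 3.78, 25.6% ± 5.72, 19.5% ± 3.21, 17.8% ± 3.62 and 5.18% ± 1.62 (SD, n = 13). Tle3 exceeded Tle1 in 10 of 13 control tumours, a mean gap of 6.36 percentage points with an SD of 8.39. Tle1 exceeded Tle4 in 10 of 13, with a gap of 6.09 and an SD of 7.67. Tle4 exceeded Tle2 in 7 of 13, with a gap of 1.64 and an SD of 5.60. None of these pairs differed beyond its spread. Tle2 exceeded Tle6 in 13 of 13, with a gap of 12.7 and an SD of 2.94. Aes, which is not counted in the shares, was at 92.9 ± 14.5 CPM per kb of its exon union (SD, n = 13), above each of the 5 members. The order of the leading pair depended on the length used. Over all 46 tumours Tle3 had the largest share in 38 with the exon union and in 13 with the longest annotated transcript, and with the latter Tle1 had the largest share in 33. Tle6 had the smallest share in 43 of 46 tumours with either length.

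**Figure D1:**
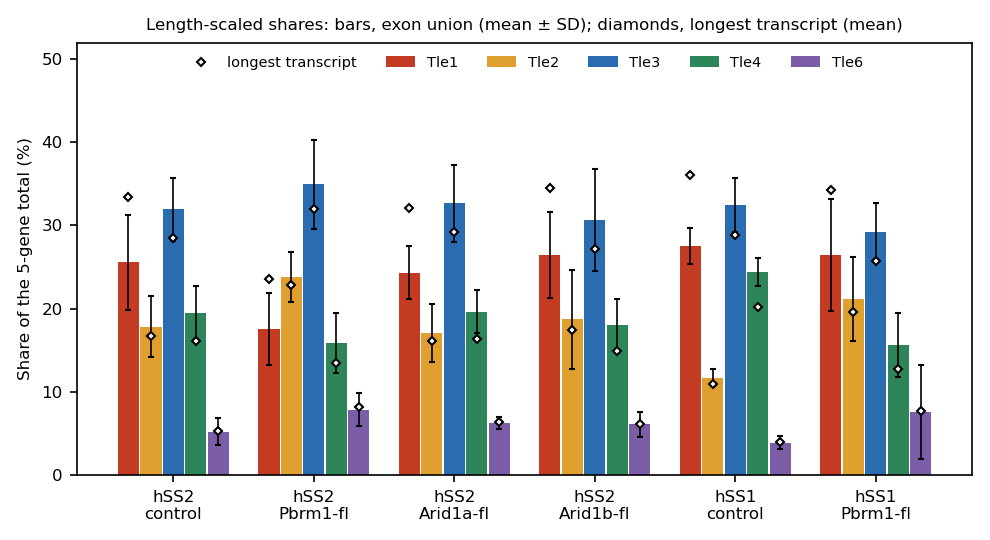
Share of each TLE gene in the 5-gene total, in percent, for the 6 groups: bars give the mean with the exon union as length and lines the SD over tumours, and white diamonds give the mean with the longest annotated transcript. Tle1 moves from the second bar in hSS2 control tumours (25.6%) to below Tle2 in hSS2 Pbrm1-fl tumours (17.5% against 23.8%), and the diamonds of Tle1 lie above its bars in every group.

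In hSS2 Pbrm1-fl tumours the mean share of Tle1 was 17.5% ± 4.31 (SD, n = 8), that of Tle2 was 23.8% ± 3.01, and that of Tle6 was 7.84% ± 2.002. In the 4 range-matched controls these shares were 20.8% ± 5.02, 18.99% ± 3.67 and 5.10% ± 1.92, so Tle1 was closer to the Pbrm1-fl mean there than in all 13 control tumours. Tle2 exceeded Tle1 in 7 of the 8 tumours with the exon union and in 4 of 8 with the longest transcript. The 5-gene total was 151 ± 22.03 CPM per kb in these tumours, 125 ± 13.3 in hSS2 control tumours and 119 ± 6.47 in the 4 range-matched controls. In hSS1 control tumours Tle4 had a share of 24.4% ± 1.71 and Tle2 11.7% ± 1.01 (n = 5), and Tle4 exceeded Tle2 in 5 of 5. In hSS1 Pbrm1-fl tumours the shares were 15.7% ± 3.87 for Tle4 and 21.2% ± 5.08 for Tle2 (n = 4), and Tle2 exceeded Tle4 in 3 of 4. Shares are a description and were not tested.

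The main comparison asked whether the TLE genes change when Pbrm1 is disrupted in hSS2 tumours. Tle2, Tle3 and Tle6 were higher in hSS2 Pbrm1-fl than in hSS2 control tumours by edgeR's quasi-likelihood test, by 1.62-fold, 1.35-fold and 1.86-fold, and Tle1 and Tle4 did not pass the test. So 3 of 5 members were called higher and 0 lower, where 3.4% of all 20083 genes tested were called higher and 3.95% lower (7.35% in either direction). The median log2 fold change of the 5 members was 0.43, against -0.0042 over all genes. In bulk tissue, a different number of cells of a type and a different amount of RNA per cell cannot be told apart.

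Tle6, the divergent member, was at 30.4, 30.4, 50.1, 24.1, 29.3, 30.2, 66.2 and 37.1 CPM in hSS2 Pbrm1-fl replicates 1 to 8. The 13 control tumours ran from 11.2 to 35.5 CPM with a median of 17.4. All 8 Pbrm1-fl tumours lay above the control median and 3 lay above every control tumour, so the groups overlap. On the log2 scale the change was 0.89 ± 0.19 (SE; adjusted p = 0.0032, edgeR). It was 1.00 ± 0.26 against the 4 range-matched controls (adjusted p = 0.0332), and 7 of 8 Pbrm1-fl tumours lay above all 4 of those.

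Tle2, a full-length corepressor, was at 180, 166, 285, 188, 196, 202, 327 and 267 CPM in the same 8 tumours. Control tumours ran from 71.5 to 217 CPM with a median of 146. Every Pbrm1-fl tumour was above the control median and 3 were above every control tumour. The log2 fold change was 0.70 ± 0.18 (adjusted p = 0.0155, edgeR). The 4 range-matched controls had 157, 110, 140 and 151 CPM, and all 8 Pbrm1-fl tumours lay above them, which held for 1.03% of genes. Against those 4 the log2 fold change was 0.68 ± 0.26 and was not called (adjusted p = 0.179), in a fit in which 2.38% of genes were called. Without Pbrm1-fl replicate 7, the highest in Tle2 and in Tle6, the adjusted p of Tle2 was 0.0515.

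Tle3, the member with the most counts, was at 424, 429, 965, 661, 566, 589, 655 and 698 CPM in hSS2 Pbrm1-fl replicates 1 to 8. Control tumours ran from 363 to 567 CPM with a median of 461. Of the 8 Pbrm1-fl tumours, 5 lay above every control tumour and 2 lay below the control median. Its log2 change of 0.43 ± 0.12 passed the test (adjusted p = 0.0248, edgeR). Against range-matched controls it was 0.36 ± 0.17 (adjusted p = 0.329), and without Pbrm1-fl replicate 3, at 965 CPM, it was 0.30 (adjusted p = 0.124). Without control replicate 11 it was 0.39 (adjusted p = 0.0548).

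Tle1, the diagnostic marker, was at 237, 270, 209, 226, 182, 258, 185 and 229 CPM in hSS2 Pbrm1-fl tumours. Control tumours ran from 163 to 409 CPM with a median of 277. All 8 Pbrm1-fl tumours were below the control median and none was below every control tumour. Its log2 change of -0.30 ± 0.13 did not pass the test (adjusted p = 0.164, edgeR). By mouse number, Tle1 in control tumours was at 216 ± 56.1 CPM (SD, n = 4) in the highest range, 282 ± 14.3 (n = 4) in the middle range, and 324 ± 63.7 (n = 5) in the lowest. Against the range-matched controls its change had the other sign, 0.042 ± 0.16 (adjusted p = 0.967).

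Tle4, a full-length corepressor, was at 144, 127, 88.2, 153, 145, 127, 144 and 137 CPM in hSS2 Pbrm1-fl tumours and at 97.0 to 170 CPM in control tumours, with a median of 138. Its log2 change was -0.05 ± 0.10 (adjusted p = 0.827, edgeR). The 8 tumours were split evenly around the control median, with 4 above it and 4 below.

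**Figure D2:**
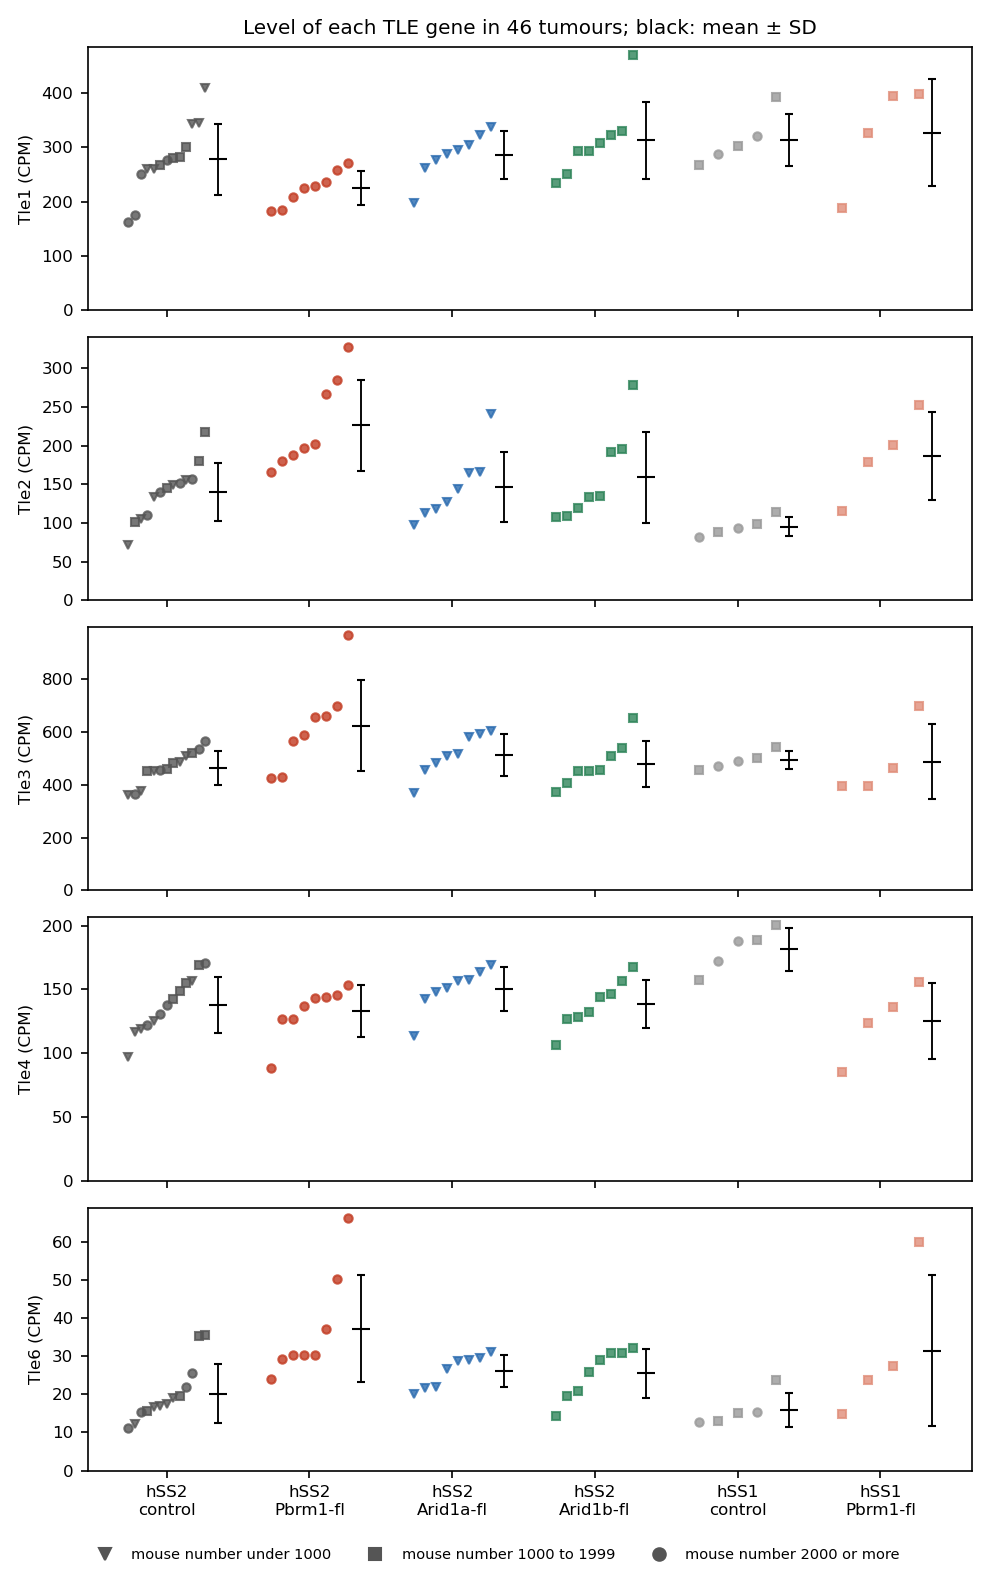
Level of Tle1, Tle2, Tle3, Tle4 and Tle6 in CPM (vertical axes, from 0) in each of 46 tumours in the 6 groups, ordered by level within a group, with the mean and SD in black and the marker shape giving the mouse number range. In Tle2 the 8 hSS2 Pbrm1-fl tumours lie between 166 and 327 CPM, and in Tle1 the hSS2 control tumours of the 2000-and-over range reach only 277 CPM.

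Muscle content differed widely between tumours, and a difference between these groups was not shown. The summed level of the 18 skeletal muscle markers had a median of 12870 CPM (43.6 to 127076) in hSS2 control tumours and 621 CPM (22.6 to 45499) in hSS2 Pbrm1-fl tumours. None of the 18 passed the test or had an unadjusted p under 0.05 (edgeR). All 18 had negative log2 fold changes, with a median of -0.88. With the log2 level of Ttn, the titin gene of striated muscle, as a covariate, the log2 fold changes were 0.62 for Tle2, 0.36 for Tle3 and 0.89 for Tle6, and all 3 stayed called (adjusted p = 0.0294, 0.0456 and 0.0048, edgeR). The 7 macrophage markers summed to medians of 212 and 263 CPM in control and Pbrm1-fl tumours and none was called. All 5 fibroblast and all 5 epithelial markers had negative log2 fold changes (medians of -0.46 and -0.40), with 0 called by edgeR in either list, 1 in each at an unadjusted p under 0.05, and 1 epithelial marker called by DESeq2. Among other genes of synovial sarcoma, Sox11 was lower, with a log2 fold change of -1.40 ± 0.38 (adjusted p = 0.0195, edgeR), which was -1.01 ± 0.48 and not called against range-matched controls (adjusted p = 0.324). Sox2, Bcl2 and Zic2 were not called by edgeR, with log2 fold changes of -1.39, -0.72 and -0.44. DESeq2 called Sox2 and Bcl2 (adjusted p = 0.0474 and 0.024). The part of these genes and cell types in the TLE results was otherwise not tested.

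In hSS1 tumours, where the lower Pbrm1 did not pass the test, Pbrm1-fl against control gave 0 of 5 members called by edgeR, in a comparison that called 1 of 17786 genes (0.00562%). At an unadjusted p under 0.05, 3 of 5 members and 17.2% of all genes passed. The DESeq2 Wald test called 1 member, and the share of all genes called by DESeq2 was not taken. That member was Tle2, at 116, 178, 200 and 253 CPM in hSS1 Pbrm1-fl replicates 1 to 4 and at 81.6, 94.0, 87.8, 99.0 and 114 CPM in hSS1 control replicates 1 to 5. All 4 Pbrm1-fl tumours lay above all 5 control tumours, as did 3.14% of genes. The log2 fold change was 0.98 ± 0.21 (adjusted p = 0.121, edgeR), and the DESeq2 Wald test gave an adjusted p of 0.00391.

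Tle4 in hSS1 was at 156, 124, 85.02 and 136 CPM in Pbrm1-fl tumours and at 188, 173, 189, 157 and 201 CPM in control tumours. All 4 Pbrm1-fl tumours lay below all 5 control tumours, as did 3.73% of genes. The log2 fold change was -0.53 ± 0.17 (adjusted p = 0.196, edgeR; 0.0791 by DESeq2). Tle6 was at 23.8, 14.7, 59.9 and 27.3 CPM against 15.4, 12.7, 15, 12.9 and 23.7 CPM, with overlapping groups and a log2 fold change of 0.99 ± 0.38 (adjusted p = 0.245, edgeR). Without Pbrm1-fl replicate 3, which had the highest Tle6, that change was 0.48. This replicate also had the lowest Pbrm1 (96.1 CPM), Tle1 (188 CPM) and Tle4 of its group. Tle1 and Tle3 had log2 fold changes of 0.07 ± 0.23 and -0.01 ± 0.18 (adjusted p = 0.91 and 0.992, edgeR). Marker genes were also read in this hSS1 comparison. All 6 proliferation markers had negative log2 fold changes, with a median of -0.88 (0 called by edgeR, 2 by DESeq2, 5 at an unadjusted p under 0.05), and their summed level had a median of 1321 CPM (646 to 1783) in control and 717 CPM (359 to 1037) in Pbrm1-fl tumours. The 5 fibroblast markers summed to a median of 779 CPM (39.6 to 1295) in control and 2342 CPM (1378 to 5183) in Pbrm1-fl tumours, with none called by edgeR or DESeq2 and 2 of 3 tested at an unadjusted p under 0.05. The 18 muscle markers summed to a median of 40.95 CPM (25.8 to 4610) in control and 57.9 CPM (17.9 to 237) in Pbrm1-fl tumours. The 10 tested had a median log2 fold change of -2.91, with 0 called by edgeR and 1 by DESeq2. The part of these genes in the hSS1 values was not tested.

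The difference itself, which is the effect of Pbrm1-fl in hSS1 less its effect in hSS2, was then tested. It called 0 of 5 members, where 2.86% of 21725 genes were called. The DESeq2 Wald test also called none, and 1 member, Tle4, had an unadjusted p under 0.05, as did 18.9% of genes. Its difference was -0.49 ± 0.18 on the log2 scale (adjusted p = 0.129, edgeR). The differences were 0.36 ± 0.24 for Tle1, 0.27 ± 0.32 for Tle2, -0.44 ± 0.22 for Tle3 and 0.10 ± 0.38 for Tle6. With range-matched controls those of Tle1 and Tle6 turned to -0.026 ± 0.28 and -0.14 ± 0.45. So for Tle3, called in hSS2 and close to 0 in hSS1, the effects in the 2 backgrounds were not shown to differ.

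**Figure D3:**
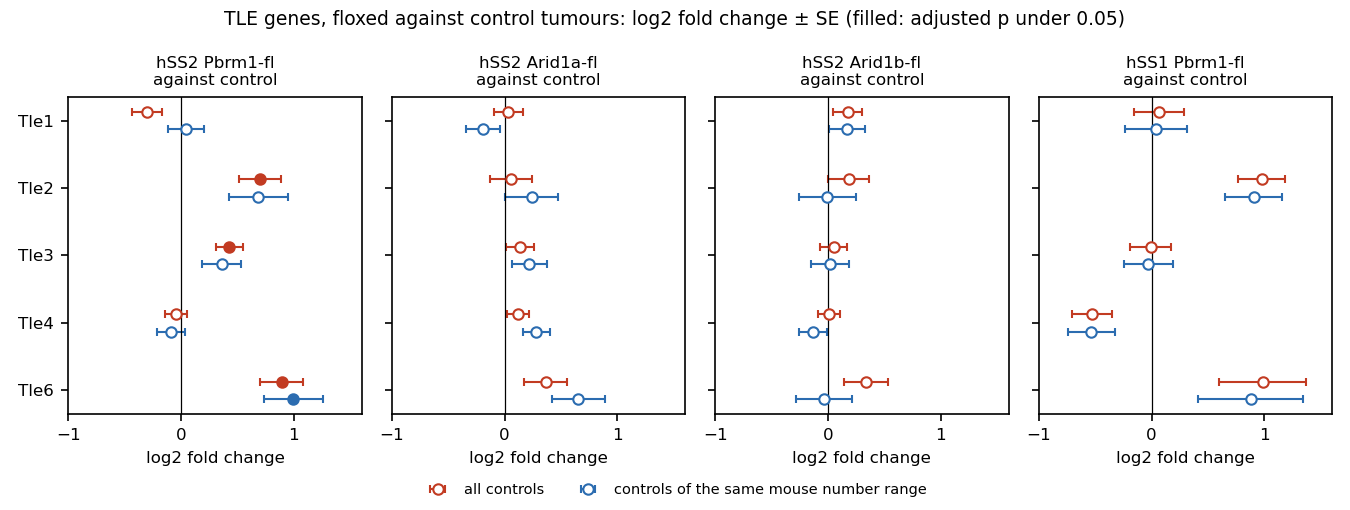
Log2 fold change of each TLE gene (horizontal axes) in floxed against control tumours in 4 comparisons, with lines for the SE, all control tumours in red and range-matched controls in blue, and filled points for an adjusted p under 0.05 (edgeR). Tle6 in hSS2 Pbrm1-fl is filled with both sets of control tumours, and Tle1 in hSS2 Pbrm1-fl moves from -0.30 to 0.042.

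No member was called in Arid1a-fl or Arid1b-fl tumours. In hSS2 Arid1a-fl tumours 0 of 5 members were called, by edgeR and by DESeq2, where edgeR called 3.17% of genes, and 0 of 5 had an unadjusted p under 0.05 (23% of genes). Tle6 had the largest difference, at 26.1 ± 4.24 CPM (SD, n = 8) against 20.2 ± 7.71 CPM (n = 13), a log2 fold change of 0.36 ± 0.19 (adjusted p = 0.248, edgeR). All 8 Arid1a-fl tumours lay above all 5 range-matched controls in Tle6, as did 0.409% of genes, and in that comparison the log2 fold change was 0.65 ± 0.24 (adjusted p = 0.082, with 7% of genes called). Tle1, Tle2, Tle3 and Tle4 had log2 fold changes of 0.03, 0.06, 0.14 and 0.12. Tle1 was at 286 ± 43.4 CPM (n = 8), and against range-matched controls its change was -0.19 ± 0.15 (adjusted p = 0.436). The 5 adipocyte and 4 tested T cell markers had median log2 fold changes of -2.99 and -2.09 in Arid1a-fl against control tumours. Those of the 5 fibroblast, 18 muscle and 6 proliferation markers were -1.43, -1.48 and 0.83. None of these markers was called by edgeR, and DESeq2 called 2 T cell markers. Their part in the TLE values was not tested.

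In hSS2 Arid1b-fl tumours, 0 of 5 members were called by edgeR or DESeq2 and 0 had an unadjusted p under 0.05, where edgeR called 0.0548% of genes and 6.22% had an unadjusted p under 0.05. The log2 fold changes were 0.17 ± 0.13 for Tle1, 0.18 ± 0.18 for Tle2, 0.05 ± 0.12 for Tle3, 0.01 ± 0.10 for Tle4 and 0.34 ± 0.19 for Tle6. Tle1 reached 469 CPM in a single Arid1b-fl tumour, its highest level in the 46 tumours, and was at 313 ± 71.4 CPM (n = 8) in the group. Against range-matched controls, Tle2, Tle4 and Tle6 had log2 fold changes of the other sign, -0.0056, -0.14 and -0.038. Of the 4 platelet and megakaryocyte markers, 2 were called higher by edgeR and 0 by DESeq2, with a median log2 fold change of 3.52. Their summed level had a median of 15.7 CPM (6.95 to 877) in Arid1b-fl and 10.3 CPM (6.58 to 21.3) in control tumours. Their part in the TLE values was not tested.

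The floxed groups were also set against each other, which shares no control tumours but places different mouse number ranges on each side. Between hSS2 Pbrm1-fl and Arid1a-fl tumours, Tle2 was higher in Pbrm1-fl by 0.64 ± 0.21 on the log2 scale (adjusted p = 0.0356, edgeR), at 226 ± 58.7 against 146 ± 45.5 CPM (SD, n = 8 each). It was the 1 member called, where 6.79% of genes were called higher and 5.5% lower (12.3% in either direction). The call did not hold when each group was first taken relative to its own range-matched controls (0.44, adjusted p = 0.494, with 2.17% of genes called) or in 8 of 16 fits that left out 1 tumour. Those were the fits without Pbrm1-fl replicate 3, 7 or 8 and without Arid1a-fl replicate 1, 2, 3, 4 or 5, with changes of 0.54 to 0.64 and adjusted p from 0.0553 to 0.0914. Tle6 differed by 0.53 ± 0.22 and Tle1 by -0.34 ± 0.15, and neither passed. Relative to range-matched controls the Tle1 difference turned to 0.23 ± 0.22 (adjusted p = 0.584).

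Between hSS2 Pbrm1-fl and Arid1b-fl tumours 0 of 5 members were called, where 4.37% of genes were called. Tle1 came nearest, at 224 ± 31.6 against 313 ± 71.4 CPM (SD, n = 8 each), with a log2 fold change of -0.48 ± 0.15 (adjusted p = 0.0545, edgeR) and an adjusted p of 0.0267 by DESeq2. Relative to each group's own range-matched controls the difference was -0.12 ± 0.23 (adjusted p = 0.935, with 0.274% of genes called). With 1 tumour left out, Tle1 was called without Pbrm1-fl replicate 2 or Arid1b-fl replicate 3 or 5 (-0.52 to -0.51, adjusted p from 0.0428 to 0.0468). Tle2 was called without Arid1b-fl replicate 6 (0.68, adjusted p = 0.0452), and Tle3 without Pbrm1-fl replicate 1 or Arid1b-fl replicate 5 (0.46 and 0.47, adjusted p = 0.0379 and 0.0482). Between Arid1a-fl and Arid1b-fl tumours 0 of 5 members were called by edgeR or DESeq2 and 0 had an unadjusted p under 0.05, where edgeR called 0.0996% of genes and 12.5% had an unadjusted p under 0.05.

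Across the 6 groups, Tle1 had its lowest mean in hSS2 Pbrm1-fl (224 CPM), followed by hSS2 control (278), then Arid1a-fl (286) and Arid1b-fl (313). The hSS1 tumours came last, at 314 CPM in control and 327 CPM in Pbrm1-fl, and each neighbour in this order lay within 1 SD of the next except the first. The gap between the first and the second group, 53.3 CPM, was larger than the SD in Pbrm1-fl (31.6 CPM) and smaller than that in control tumours (65.8 CPM). The range-matched controls of hSS2 Pbrm1-fl were at 216 ± 56.1 CPM (SD, n = 4), below the Pbrm1-fl mean, so the gap was not seen within that range. Tle2 ran from 95.4 CPM in hSS1 control tumours to 226 CPM in hSS2 Pbrm1-fl tumours, with hSS1 Pbrm1-fl tumours at 187 CPM the nearest below. Tle4 had its highest mean, 182 ± 16.98 CPM (SD, n = 5), in hSS1 control tumours, and the other 5 groups lay between 125 and 150 CPM. The tables of hSS1 and hSS2 were counted separately, and their libraries cannot be told apart from the background they come from.

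Tle2 and Tle6 varied together from tumour to tumour. After the mean of each group was subtracted, their log2 levels over the 37 hSS2 tumours had Pearson's r = 0.667 and Spearman's rho = 0.675, with permutation p-values of 2e-05 and 5e-05 from 100000 permutations within groups (adjusted over 15 pairs of the 5 members and Aes, 0.0003 and 0.00075). Without the 2 tumours farthest from the median of Tle2, r was 0.698. Within groups r was 0.649 in control, 0.901 in Pbrm1-fl, 0.463 in Arid1a-fl and 0.707 in Arid1b-fl tumours, and by mouse number it was 0.325 in the lowest, 0.785 in the middle and 0.868 in the highest range. Over the 9 hSS1 tumours r was 0.324 and rho 0.350 (permutation p = 0.604 and 0.435, adjusted 0.755 and 0.933). Whether reads shared across the 58 bases between the genes take part was not tested.

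Of the other 14 pairs in hSS2, Tle6 and Aes also passed, with r = 0.474 and rho = 0.468 (permutation p = 0.00527 and 0.006, adjusted 0.0395 and 0.045), and r was 0.403 without the 2 tumours farthest in Tle6. Within ranges that r was 0.192, 0.626 and 0.574 in the same order as above. Tle1 was related to no other member past the threshold, and its r with them lay between -0.235 (Tle3) and -0.0137 (Tle2). None of the 15 pairs passed in hSS1, where n was 9 and the strongest by adjusted value was Tle6 with Aes (r = 0.844 and rho = 0.800, permutation p = 0.0113 and 0.0252, adjusted 0.169 and 0.267), which dropped to r = 0.365 without 2 tumours.

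**Figure D4:**
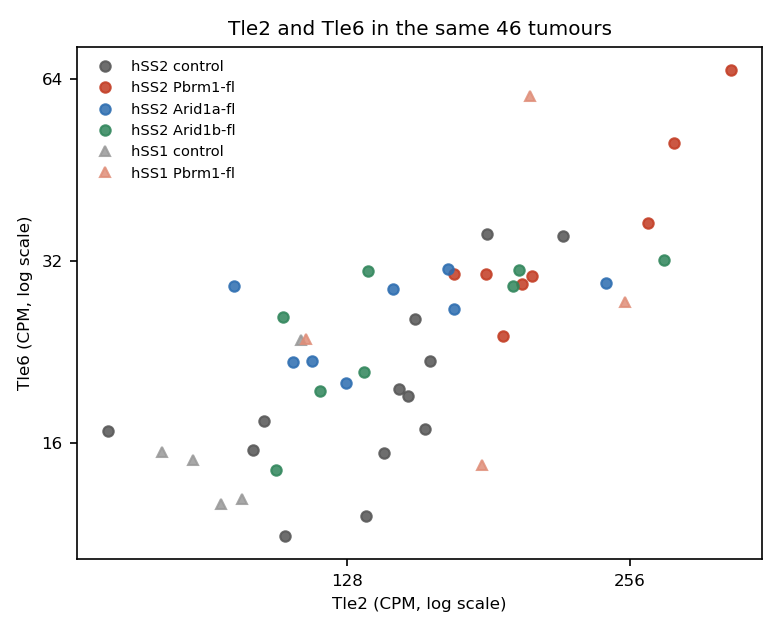
Level of Tle6 against that of Tle2 in the same 46 tumours, both in CPM on log scales, with circles for hSS2 and triangles for hSS1 tumours coloured by group. The 3 hSS2 Pbrm1-fl tumours with the most Tle2 (267, 285 and 327 CPM) also have the most Tle6 of that group (37.1, 50.1 and 66.2 CPM).

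The stretch of chromosome 10 around Tle2 and Tle6 held other genes that were higher in hSS2 Pbrm1-fl tumours. Of 11 tested genes within 100 kb of Tle2, 3 were called higher and 0 lower, namely Tle6 itself, Aes and Ankrd24. Of all genes tested, 3.4% were called higher and 3.95% lower. Aes rose by 0.31 ± 0.09 on the log2 scale (adjusted p = 0.0316, edgeR), from 310 ± 48.3 CPM (SD, n = 13) in control to 383 ± 51.5 CPM (n = 8) in Pbrm1-fl tumours, and all 8 Pbrm1-fl tumours lay above the 4 range-matched controls. Against those 4 its change was 0.43 ± 0.13 and was not called (adjusted p = 0.0672). Ankrd24, at chr10:81628540-81647610 on the plus strand, rose by 0.92 ± 0.18 (adjusted p = 0.00153, edgeR), which was 0.91 ± 0.27 and not called against range-matched controls (adjusted p = 0.0607). In hSS1 its log2 fold change was 0.80 ± 0.18 (adjusted p = 0.121). The 8 other genes of the stretch did not pass in hSS2 Pbrm1-fl tumours, nor did any of the 11 in Arid1a-fl or Arid1b-fl tumours. Against range-matched controls Ncln was called in Arid1a-fl tumours (0.43 ± 0.13, adjusted p = 0.041). Tle1 and Tle3 each had 1 tested neighbour within 100 kb, which was not called, and Tle4 had none.

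The genes whose levels followed each member most closely were taken from 13633 protein-coding autosomal genes by Pearson's r over the 37 hSS2 tumours after the group means were subtracted, as a description with no test. They were Shld2, Scfd1 and Snapc3 for Tle1 (r = 0.724, 0.656 and 0.647), with r = 0.464, -0.615 and 0.604 over the 9 hSS1 tumours. For Tle2 they were Arhgef25, Abcc10 and Ankrd24 (0.844, 0.797 and 0.775), all negative in hSS1 (-0.178, -0.105 and -0.471). For Tle3 they were Kdm4a, Gm10837 and Wdr25 (0.728, 0.692 and 0.683), with 0.351, 0.147 and -0.113 in hSS1. For Tle4 they were Znrd1as, Cab39l and Dhrs1 (0.696, 0.681 and 0.649), with -0.0536, 0.644 and -0.722 in hSS1. For Tle6 they were Plcb3, Ttf1 and Sirt7 (0.736, 0.732 and 0.731), with 0.649, 0.845 and 0.979 in hSS1. Those hSS1 values include Pbrm1-fl replicate 3, with 59.9 CPM of Tle6 where the next highest tumour had 27.3 CPM. They were not taken without it. No member was among the 3 genes most like another member.

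The relation of the TLE genes to muscle content was examined within ranges of Ttn. Ttn ran from 4.59 to 56765 CPM in hSS2 tumours and fell into 2 clusters, 18 tumours at 548 CPM or less and 19 at 2620 CPM or more, so no pooled correlation is given. Within the clusters no member passed after adjustment over 15 relations. Tle3 came nearest, with r = -0.603 and rho = -0.604 in the 19 tumours with high Ttn (permutation p = 0.00602 and 0.00659, adjusted 0.0903 and 0.0989), and r was -0.442 without the 2 tumours farthest from the median of Ttn. Within this cluster r of Tle3 was -0.656 in the 8 control tumours, -0.687 in the middle range of mouse numbers (n = 8) and -0.802 in the lowest (n = 7), and the 4 tumours of the highest range were too few.

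Tle1 had r = -0.416 and rho = -0.418 in the high cluster (permutation p = 0.0775 for both, adjusted 0.581) and r = -0.230 and rho = -0.179 in the low cluster (p = 0.359 and 0.476, adjusted 0.828 and 0.892). In the high cluster r of Tle1 was 0.0586 within the 8 control tumours. Tle2, Tle4 and Tle6 had r between -0.340 and 0.0887 in both clusters. In the 6 hSS1 tumours with low Ttn, r ran from -0.0802 (Tle1) to 0.370 (Tle3), with exact permutation p-values from 0.494 to 0.978.

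Each group of hSS2 tumours was found in both clusters. Tle1 in Pbrm1-fl tumours was at 182 to 229 CPM in the 5 with low Ttn and at 237 to 270 CPM in the 3 with high Ttn. In control tumours it was at 163 to 409 CPM in the 5 with low Ttn and at 260 to 343 CPM in the 8 with high Ttn, so in control tumours the range of Tle1 was wider at low Ttn. Tle2 in the 5 Pbrm1-fl tumours with low Ttn was at 188 to 327 CPM, above the 110 to 157 CPM of the 5 control tumours with low Ttn, and 3.46% of genes separated these groups in that direction. Tle3 was at 566 to 965 CPM in those Pbrm1-fl tumours and at 456 to 567 CPM in those control tumours, and in the high cluster at 424 to 589 CPM (n = 3) and 363 to 520 CPM (n = 8). Tle6 was at 24.1 to 66.2 CPM against 11.2 to 21.8 CPM in the low cluster, also with no overlap, and at 30.2 to 30.4 CPM (n = 3) against 12.1 to 35.5 CPM (n = 8) in the high cluster.

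**Figure D5:**
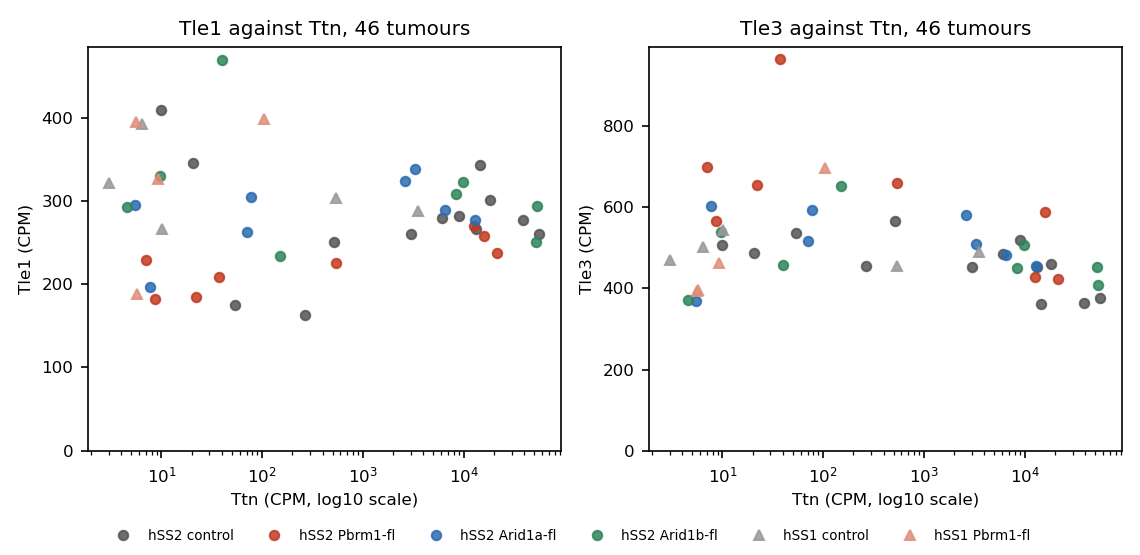
Level of Tle1 (left) and Tle3 (right) in CPM against that of Ttn in CPM on a log10 axis in 46 tumours, with circles for hSS2 and triangles for hSS1 tumours coloured by group. The hSS2 tumours fall into 18 with Ttn at 548 CPM or less and 19 at 2620 CPM or more, and Tle3 in the latter slopes downward with Ttn (r = -0.603).

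Partners of the TLE proteins were read from a list of 26 genes: the relative Aes, the histone deacetylases Hdac1 and Hdac2, ATF2, and transcription factors known to recruit TLE proteins. In hSS2 Pbrm1-fl against control tumours 24 were tested, 4 were called higher and 1 lower, where 3.4% of all genes were called higher and 3.95% lower. The median log2 fold change of the 24 was 0.28, against -0.0042 over all genes. Besides Aes, the higher genes were Hes1, a Notch target and repressor (0.65 ± 0.19, adjusted p = 0.0296, edgeR), Runx3, a runt-domain factor (1.10 ± 0.32, adjusted p = 0.0294), and Prdm1, a transcriptional repressor (1.14 ± 0.27, adjusted p = 0.00696). Nkx6-1, a homeodomain factor, was lower (-2.79 ± 0.83, adjusted p = 0.0318). None of the 24 was called against range-matched controls, in a fit that called 2.38% of all genes. There the change of Nkx6-1 turned to 0.22 ± 0.92. Hdac1 and Hdac2 had log2 fold changes of 0.37 ± 0.15 and 0.04 ± 0.11 and were not called.

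In Arid1a-fl tumours 1 partner was called higher and 2 lower, where 1.41% of all genes were called higher and 1.76% lower. Tcf7l2, a TCF factor of the Wnt pathway, rose by 0.69 ± 0.16 (adjusted p = 0.0255, edgeR), and of the lower genes the developmental factor Gsc had a log2 fold change of -1.82 ± 0.44 (adjusted p = 0.0271). Against range-matched controls Tcf7l2 stayed called (0.90 ± 0.21, adjusted p = 0.0113), Hdac1 was called (0.59 ± 0.17, adjusted p = 0.0358), and Gsc was not (-1.43 ± 0.49, adjusted p = 0.0653). No partner was called in Arid1b-fl tumours, by edgeR or DESeq2, where edgeR called 0.0548% of all genes. At an unadjusted p under 0.05, 4 of 24 partners and 6.22% of all genes passed there (edgeR). In hSS1 Pbrm1-fl tumours 0 of 23 were called by edgeR, which called 0.00562% of all genes. DESeq2 called 2, and its share of all genes was not taken. An unadjusted p under 0.05 (edgeR) was found for 3 of the 23 and for 17.2% of all genes. Hes6, an HES-related factor, was the 1 partner whose Pbrm1-fl effect differed between the backgrounds, where 2.86% of all genes were called. Its difference was -2.72 ± 0.63 in hSS1 relative to hSS2 (adjusted p = 0.0157, edgeR). With range-matched controls this was -1.68 ± 0.71 and not called (adjusted p = 0.336). Between hSS2 Pbrm1-fl and Arid1a-fl tumours 8 of 24 tested partners were higher and 0 lower in Pbrm1-fl, where 6.79% of all genes were higher and 5.5% lower, and 0 of the 8 were called with range-matched controls. Among them were Prdm1 (1.84 ± 0.31, adjusted p = 0.000223), Gsc (2.11 ± 0.47, adjusted p = 0.00275) and Runx3 (1.58 ± 0.37, adjusted p = 0.00469). Aes, Runx1, En1 and Pax5 were also among them, with log2 fold changes of 0.33, 1.03, 3.14 and 2.69. In the same comparison the 4 tested T cell markers had a median log2 fold change of 2.44. Of these markers, 1 was called higher by edgeR and 3 were called by DESeq2. Their part in the partner values was not tested. Pax5 and Prdm1 were also higher in Pbrm1-fl than in Arid1b-fl tumours, where 1.65% of all genes were, by 2.35 ± 0.65 and 1.04 ± 0.31 (adjusted p = 0.0286 and 0.0433, edgeR), and neither was called with range-matched controls (1.33 ± 1.08 and 1.04 ± 0.53, adjusted p = 0.759 and 0.529).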

How the data were processed

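The values used were raw read counts per Ensembl gene, which the authors deposited as a table for hSS2 and a table for hSS1. Per the study's methods and the submitters' processing notes, the libraries were stranded and depleted of ribosomal RNA, and their reads were mapped to mm10 by STAR 2.7.11 and counted with featureCounts 1.6.3. The annotation release, the strand setting and the treatment of multi-mapping reads are not given in the sources used here. Symbols, positions and lengths came from GENCODE M21, in which 91.4% of hSS2 and 91.2% of hSS1 identifiers had a symbol.

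Groups and mouse numbers came from the sample titles, and replicates were numbered within a group. The members, gene lists and tests were chosen with earlier results of these data known. Named genes were the 5 members, called genes of the partner list, the 3 genes most correlated with each member (mean of at least 1 CPM in hSS2), called neighbours within 100 kb and the targeted genes. Some genes of these lists are counted but not reported here by name.

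Counts were filtered with filterByExpr, scaled by TMM and tested with two-sided robust quasi-likelihood F-tests in edgeR 4.0.16 (R 4.3.3), with Benjamini-Hochberg adjustment over all genes and a threshold of 0.05. The 37 hSS2 libraries shared a fit, the 9 hSS1 libraries another, and the difference between backgrounds used all 46. DESeq2 1.42.0, its size factors, no filter, range-matched controls, Ttn as covariate and leaving out tumours were alternatives. Shares of all genes called are from edgeR, and those of DESeq2 were not taken, so its calls stand without such a share. Logs of CPM used a prior count of 2. The relations between members and the split by Ttn (largest gap, over 2 on the log2 scale) were set after the levels had been seen. The edgeR and permutation steps were tested on simulated data. Read counts of 168 or more per member and library put counting error below the spread between tumours.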

Additional observations from a re-analysis of the deposited data

Results flagged for a closer look

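In 3 of 30 groups of 4 to 8 tumours (the 5 members and Ttn), 1 tumour stood apart from the rest by Dixon's test on log2 levels, which chance flags in about 1 in 20 groups. Tle1 was at 197 CPM in hSS2 Arid1a-fl replicate 1, the lowest of 8 (gap over range 0.53). Tle4 was at 88.2 CPM in hSS2 Pbrm1-fl replicate 3, the lowest of 8 (0.655), the tumour that also had the highest Tle3 (965 CPM). Tle4 was at 114 CPM in hSS2 Arid1a-fl replicate 3, the lowest of 8 (0.57). No member's Pbrm1-fl effect differed between hSS1 and hSS2 by the test of the difference.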

How the results depend on the processing

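No paired analysis was possible because replicates were numbered within groups in the order of the titles and, though littermates served as controls, the labels do not say which tumours share a litter. The number of called members in hSS2 Pbrm1-fl against control tumours was 3 and became 1 (Tle6) against range-matched controls. Between hSS2 Pbrm1-fl and Arid1a-fl it was 1 and became 0 with no filter on low counts and 0 with range-matched controls. Between Pbrm1-fl and Arid1b-fl it was 0 and became 1 with DESeq2 size factors and 1 with the DESeq2 Wald test. In hSS1 Pbrm1-fl against control it was 0 and became 1 with the DESeq2 Wald test. When each tumour was left out in turn, there were 2 to 3 called members in hSS2 Pbrm1-fl against control, 0 to 1 against Arid1a-fl and 0 to 2 against Arid1b-fl, and 0 to 0 in the other comparisons. The number of tumours in which Tle3 had the largest share was 38 and became 13 with the longest transcript. The cause of these changes was not tested.

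Some log2 fold changes changed direction, none of them called in either fit. With range-matched controls, Tle1 gave 0.042 in hSS2 Pbrm1-fl against control, -0.19 in Arid1a-fl, 0.23 between Pbrm1-fl and Arid1a-fl and -0.026 in the difference between backgrounds. Tle2 gave -0.0056 in Arid1b-fl and 0.25 between Arid1a-fl and Arid1b-fl, Tle4 gave -0.14 in Arid1b-fl and 0.047 between Pbrm1-fl and Arid1b-fl, and Tle6 gave -0.038 in Arid1b-fl and -0.14 in the difference between backgrounds. With Ttn as a covariate, Tle2 gave -0.0017 in Arid1a-fl and Tle3 0.027 in hSS1 Pbrm1-fl. Tle4 in Arid1b-fl gave -0.0041 with DESeq2 size factors, -0.0036 with DESeq2 and -0.048 without hSS2 control replicate 9.

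Without 1 tumour, the ranges that crossed 0 were, for Tle1, -0.027 to 0.27 in hSS1 Pbrm1-fl and -0.013 to 0.10 in Arid1a-fl. For Tle2 they were -0.086 to 0.13 in Arid1a-fl and -0.27 to 0.040 between Arid1a-fl and Arid1b-fl, and for Tle3 -0.21 to 0.099 in hSS1 Pbrm1-fl and -0.050 to 0.094 in Arid1b-fl. For Tle4 they were -0.048 to 0.035 in Arid1b-fl, -0.10 to 0.011 in hSS2 Pbrm1-fl and -0.089 to 0.022 between Pbrm1-fl and Arid1b-fl. For Tle6 they were -0.033 to 0.091 between Arid1a-fl and Arid1b-fl and -0.42 to 0.32 in the difference between backgrounds.

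In the relations to Ttn, r of Tle4 in hSS2 tumours with low Ttn became -0.244 without 2 tumours. In hSS1, r became 0.0396 (Tle1), -0.433 (Tle2) and 0.354 (Tle4) with the muscle list mean, -0.0525 (Tle2) and 0.102 (Tle4) with deviations from group means, and 0.191 (Tle1), -0.749 (Tle2) and 0.479 (Tle4) without 2 of the 6 tumours. No relation was called under these settings. With DESeq2 size factors, Tle3 in hSS2 tumours with high Ttn passed by Spearman (rho = -0.647, adjusted permutation p = 0.0492) and not by Pearson (0.0683). With library totals without the muscle list it did likewise (rho = -0.653, adjusted permutation p = 0.0436, and 0.0654 by Pearson). With deviations from group means, r of Tle3 in the 6 hSS1 tumours was 0.894 (adjusted permutation p = 0.0729).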
